A study of Mus musculus with 6 samples.

Results

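The 6 genes described here belong to the kallikrein-kinin system. They are the kininogen genes Kng1 and Kng2, the bradykinin receptor genes Bdkrb1 and Bdkrb2, and the genes Ace and Mme for a pair of peptidases that degrade kinins. They were taken by symbol from the 16000 genes in the deposited tables, and all 6 were found. The set was proposed because Kng2 was already known to stand among the largest rises in these data, so every knockout against wild-type value of the 6 genes is given as a description, with no test. RNA came from serum-starved cells of NIH3T3, a fibroblast line made from mouse embryos. Wild-type cells gave 3 libraries, and 3 more were labelled RAI16 KO. Both groups share the line and the starvation and differ, per the labels, in the genotype alone. The sources used here do not give the lesion, the number of clones or whether libraries came from separate cultures. The p-values therefore weigh the difference between groups only against the spread of these libraries within groups, and that spread may be technical.

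Kinins are short peptides that are cut out of kininogens. Kallikreins release bradykinin or kallidin from the kininogen chain, which in the blood comes mainly from the liver and also carries cystatin domains that inhibit cysteine proteases. The B2 receptor (Bdkrb2) binds intact bradykinin and is present on many cells at rest. The B1 receptor (Bdkrb1) prefers kinins that have lost their last arginine, and it is known for its induction by cytokines and tissue injury. Both receptors signal mainly through Gq proteins and phospholipase C, with release of calcium and of prostaglandins in fibroblasts. Angiotensin-converting enzyme (Ace) and neprilysin (Mme) end the signal by cutting bradykinin.

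Kng1 and Kng2 are copies of a single ancestral gene that lie on opposite strands of chromosome 16 with no listed gene between them, and their likeness bears on every kininogen count below. In the GENCODE vM21 transcripts, the longest coding sequences (1986 bases for Kng1 and 1935 for Kng2) aligned over 1929 bases, of which 134 differed, an identity of 93.05%. The longest run without a difference was 116 bases. Of all windows of 50 bases in the protein-coding transcripts of Kng2, 20.7% also occurred in Kng1 transcripts, and this share was 5.85% for windows of 100 bases and 1.62% for windows of 150 bases. For Kng1 the shares were 17.2%, 4.93% and 1.39%. The stretch of 60 bases with the most differences is shown for both genes, at coding bases 380 to 439 in each, because it shows how far the copies can be told apart. Capitals mark the 16 bases that differ.
Kng1: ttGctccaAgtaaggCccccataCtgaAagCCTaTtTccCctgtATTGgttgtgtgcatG
Kng2: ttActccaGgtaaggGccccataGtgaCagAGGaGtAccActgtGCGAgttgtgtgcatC
The sources used here give neither the read length nor the treatment of reads that fit both genes. A processed pseudogene, Gm6493, also overlaps Kng2 on the same strand in GENCODE vM21. The split of counts between the copies is therefore uncertain, and the sum of both is given beside it.

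RefSeq promoter sequences were found for 4 of the 6 genes (Kng2, Bdkrb2, Ace and Mme). Those of Kng2 and Bdkrb2 are shown because they stand before the start of a gene that was higher and of one that was lower in the knockout libraries. Each run holds the 250 bases before the annotated start in build GRCm38.p6, and capitals mark CG pairs.
Kng2, minus strand of chr16:23029102-23029351: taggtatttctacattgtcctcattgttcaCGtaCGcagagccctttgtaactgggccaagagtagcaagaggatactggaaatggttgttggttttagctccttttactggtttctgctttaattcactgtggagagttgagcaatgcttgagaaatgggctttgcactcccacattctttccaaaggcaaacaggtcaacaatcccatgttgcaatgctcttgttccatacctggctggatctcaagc
Bdkrb2, plus strand of chr12:105562922-105563171: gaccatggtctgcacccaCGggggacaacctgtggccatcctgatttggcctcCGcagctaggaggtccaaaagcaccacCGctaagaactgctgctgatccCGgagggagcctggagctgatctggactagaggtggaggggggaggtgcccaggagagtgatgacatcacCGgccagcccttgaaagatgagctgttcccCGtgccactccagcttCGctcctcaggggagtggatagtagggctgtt
The Kng2 window held 2 CG pairs and the Bdkrb2 window 7. Of the 32851 RefSeq promoter windows of this length, 29% held as few as Kng2 or fewer, 57% as few as Bdkrb2 or fewer, and the median was 6. Methylation was not measured in this study.

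The libraries held from 16741607 to 18368760 counts. The targeted gene, listed as Fam160b2, had 440, 375 and 411 counts in wild-type replicates 1 to 3 and 410, 394 and 390 in the knockout libraries (log2 fold change −0.12 ± 0.075 SE, adjusted p = 0.184 in edgeR's quasi-likelihood test). It was not called lower, and counting reads over the whole gene cannot show a small lesion, so directions below are those of the libraries labelled knockout. All 10 fibroblast markers were listed and tested, with a summed level of 6070 to 6200 FPKM in wild type and 6870 to 7020 FPKM in knockout. In knockout 5 of them were called higher and 3 lower, where 30.5% of all genes tested were higher and 29.2% lower. Knockout replicate 2 stood apart from the other knockout libraries on the second principal component (5.9% of the variance). Against the mean of the other two, its CPM had a median log2 difference of 0.24 in the 2993 tested genes with the shortest derived lengths and of −0.25 in the 2993 with the longest. Results that rest on this library are given with and without it.

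The kininogen genes were nearly silent in wild-type cells and clearly present in the knockout libraries. Kng2 (gene number 385643) had 15, 14 and 20 counts in wild-type replicates 1, 2 and 3, against 581, 675 and 540 in knockout replicates 1, 2 and 3. Every knockout library lay far above every wild-type library, and the lowest and highest knockout libraries lay close together. CPM is the count scaled to a common library total, here after TMM scaling. Wild-type libraries averaged 0.952 ± 0.171 CPM and knockout libraries 32.9 ± 3.40 CPM (SD, n = 3 each). As in all bulk RNA, more cells that express a gene and more RNA per cell cannot be told apart. The ratio of summed counts, 1796 against 49, was 34.5 after scaling, with a 95% counting interval from 26.0 to 46.9. The fitted log2 fold change was 5.10 ± 0.15 (SE) with all libraries and 5.01 without knockout replicate 2.

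Kng1 (gene number 16644), the other copy, followed at a lower level. It had 0, 1 and 0 counts in the wild-type libraries and 116, 152 and 103 in the knockout libraries, again with no overlap. Its mean was 6.79 ± 1.31 CPM in knockout (SD, n = 3). The ratio of summed counts was 350 and the 95% counting interval ran from 62.4 to 13840, since a single wild-type count stands in the denominator. A gene at this level passed the filter on low counts only through the knockout libraries. Counted as a single feature, the kininogens summed to 50 wild-type and 2167 knockout counts. The scaled ratio was 40.8 (30.9 to 55.2), and the fitted log2 fold change of the sum was 5.34 ± 0.16 (SE).

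The division of counts between the copies was steady among knockout libraries. Kng1 took 16.6%, 18.4% and 16.0% of all kininogen counts in knockout replicates 1, 2 and 3. Pooled over the group this was 17.1% (exact binomial 95% interval 15.6% to 18.8%). In wild type it was 1 count of 50, or 2% (0.0506% to 10.6%), an interval below that of the knockout group. The exact binomial 95% intervals of the single wild-type libraries reached up to 21.8%, 31.9% and 16.8%. They overlapped those of the knockout libraries, so no difference in the split can be read from a single wild-type library. All these intervals cover counting error only. The pooled wild-type share rests on 1 Kng1 count, and the assignment of reads that fit both genes is not known. FPKM divides the count by gene length and library total, so levels of different genes can be compared. On this scale Kng2 was 4.61 ± 0.388 times as high as Kng1 over the knockout libraries (SD, n = 3).

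**Figure D1:**
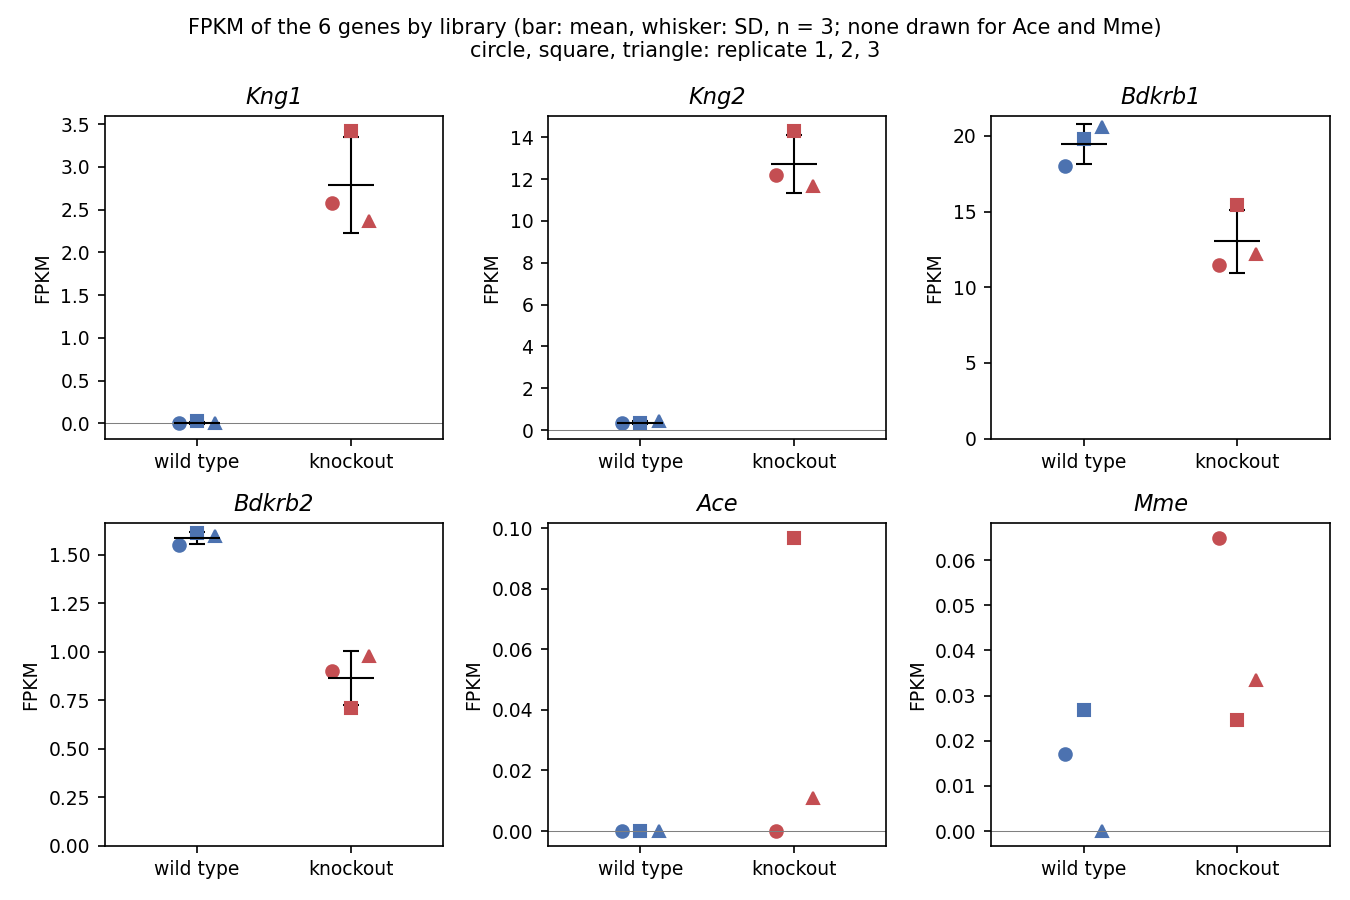
Level of each gene in FPKM (y axis, linear, own scale per gene) in the 3 wild-type (blue) and 3 knockout (red) libraries, with circle, square and triangle for replicates 1, 2 and 3 and the mean ± SD drawn except for Ace and Mme. The kininogens lay near 0 in wild type and at means of 2.79 (Kng1) and 12.7 FPKM (Kng2) in knockout, while both receptors were lower in every knockout library than in any wild-type library.

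Both receptor genes were lower in the knockout libraries, by less than the kininogens were higher. Bdkrb1 (gene number 12061), the inducible B1 receptor, had 445, 471 and 512 counts in wild-type replicates 1, 2 and 3 and 299, 398 and 309 in knockout replicates 1, 2 and 3. The groups did not overlap, and knockout replicate 2 came nearest to wild type. Wild-type libraries averaged 27.8 ± 1.89 CPM, knockout libraries 18.4 ± 2.87 CPM (SD, n = 3 each). On the log2 scale the difference was −0.59 ± 0.11 (SE). Without knockout replicate 2 it was −0.72.

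Bdkrb2 (gene number 12062), the constitutive B2 receptor, had 119, 119 and 123 counts in wild-type libraries, against 73, 57 and 77 in those labelled knockout. The wild-type libraries were almost equal, and each knockout library lay below all of them. The group means were 7.03 ± 0.133 CPM for wild type and 3.80 ± 0.630 CPM for knockout (SD, n = 3 each). On the log2 scale the difference was −0.89 ± 0.15 (SE), or −0.76 without knockout replicate 2. Here knockout replicate 2 was the lowest library, whereas for Bdkrb1 it was the highest of the knockout group. The length derived from counts and FPKM was 1421 bases for Bdkrb1 and 4411 for Bdkrb2, and this library's shift with length across all genes runs the same way. For the genes of 3578 to 5784 bases, where Bdkrb2 falls, the median shift was −0.06 on the log2 scale, against −0.42 for Bdkrb2. For those up to 2213 bases it was 0.24, against 0.37 for Bdkrb1. Its part in the receptor values was not tested.

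The B1 receptor transcript outnumbered the B2 receptor transcript per length in every library. The ratio of Bdkrb1 to Bdkrb2 in FPKM was 11.6, 12.3 and 12.9 in wild-type replicates 1 to 3. In knockout replicates 1 and 3 it was 12.7 and 12.5, inside the wild-type range, and in knockout replicate 2 it was 21.7. The mean of 15.6 ± 5.25 in knockout (SD, n = 3) rests on that library.

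**Figure D2:**
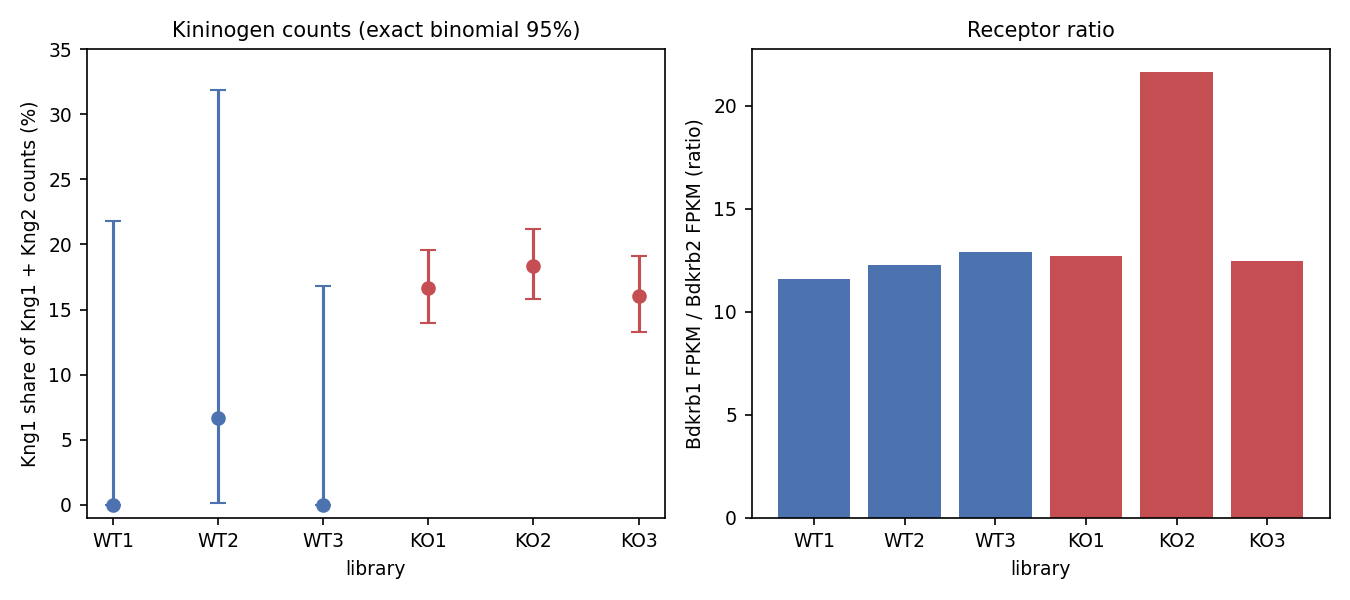
Left, Kng1 as a percentage of the summed kininogen counts in each library, with exact binomial 95% intervals. Right, the ratio of Bdkrb1 to Bdkrb2 in FPKM per library, which lies between 11.6 and 12.9 except for knockout replicate 2 (KO2) at 21.7.

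The peptidase genes Ace and Mme were hardly detected. Ace (gene number 11421) had 0 counts in all wild-type libraries, where 0 of 51612670 counts allows up to 0.0581 CPM. It had 0, 9 and 1 counts in knockout replicates 1, 2 and 3, so 1 library held nearly all of them. Without knockout replicate 2 a single count remained, and no fold is given. An antisense gene overlaps Ace in GENCODE vM21, and the sources do not say whether the counting used strand. Mme (gene number 17380) had 2, 3 and 0 wild-type counts and 8, 3 and 4 knockout counts, with overlapping groups. The ratio of its summed counts was 2.83 and the 95% counting interval, 0.977 to 9.94, included equality. Neither gene passed the filter, so 4 of the 6 genes entered the fit.

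Per length, the order of the 6 genes differed between the groups. In wild type, Bdkrb1 stood first at 19.5 ± 1.33 FPKM, followed by Bdkrb2 at 1.59 ± 0.0310, Kng2 at 0.365 ± 0.0657, and then Mme and Kng1 at 0.0146 ± 0.0135 and 0.00814 ± 0.0141 FPKM, which did not differ beyond their spread, with Ace at 0 (SD, n = 3 each). In knockout, Bdkrb1 at 13.0 ± 2.10 FPKM and Kng2 at 12.7 ± 1.39 FPKM overlapped in range. Kng1 came next at 2.79 ± 0.557 FPKM and Bdkrb2 after it at 0.864 ± 0.138, while Mme (0.0410 ± 0.0212) and Ace (0.0359 ± 0.0530) could not be separated. Among all 16000 genes, 28.6% lay below Kng2 in mean FPKM in wild type and 68.3% in knockout. For Bdkrb1 these shares were 77.8% and 69%.

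All 4 genes in the fit had ranges of CPM that did not overlap between the groups, the kininogens with knockout above and the receptors with knockout below. This was also so for 67.6% of the 11972 genes tested, 34.1% with knockout above and 33.5% below. Since the contrast was known when the genes were chosen, nothing is read from that count.

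Genes with a pattern most like each member were named by the smallest root mean square difference between centred log2 CPM over the 6 libraries. For Kng2 these were Dkk2, a secreted Wnt modulator (difference 0.12), Vip (0.18) and Ripk3 (0.28). Their fitted log2 fold changes were 4.91, 6.55 and 5.45, against 5.10 for Kng2. For Kng1 the most alike were Dynap (0.43), Msln (0.44) and Kng2 itself (0.48). All values, also those for Kng2, are damped by the prior count of 2. Vip, Ripk3 and Dynap averaged only 0.0384, 0.136 and 0.0591 CPM in wild type. For Bdkrb1 the most alike were Flacc1 (0.040), Mettl7a1 (0.052) and Tfb2m (0.060). For Bdkrb2 they were Dpy19l3 (0.029), Fnip2 (0.037) and Prkd3 (0.037).

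Genes beside the kininogens on chromosome 16 differed in both directions. Of the 14 tested in the window described below, 5 were higher and 5 lower, against 30.5% and 29.2% over all genes tested. The nearest listed genes in RefSeq order (GRCm38.p6, used for order alone) were Fetub and Dnajb11 on the side of Kng2 and Eif4a2 and Rfc4 on the side of Kng1. Fetub, which encodes fetuin B, a secreted member of the cystatin superfamily like the kininogens, had 53, 76 and 63 wild-type counts and 352, 441 and 368 knockout counts. It rose from 3.75 ± 0.754 to 21.3 ± 2.51 CPM (mean ± SD of 3 libraries each; log2 fold change 2.51 ± 0.15 SE, adjusted p = 1.98e-06, edgeR). The chaperone gene Dnajb11 rose by 0.49 ± 0.072 (adjusted p = 3.85e-04, edgeR) and the translation factor gene Eif4a2 by 0.34 ± 0.053 (adjusted p = 5.49e-04, edgeR) on the log2 scale. Rfc4, of the clamp loader in DNA replication, rose by 0.37 ± 0.13 (adjusted p = 0.0371, edgeR), and this call was lost without knockout replicate 2 and without any 1 wild-type library, with adjusted p up to 0.114.

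Tbccd1, the third neighbour on the side of Kng2 and named after its value was seen, was also higher, by 0.69 ± 0.073 on the log2 scale. The remaining tested neighbours ran from −1.95 to −0.04 on the log2 scale, with 5 called lower and the others, such as Senp2 (−0.04) and Rtp4 (−0.05), not called. The higher genes were set apart after their values were seen, so no border is read from this. Of all 20 listed neighbours, 10 on each side and the nearest included, 14 were tested, 5 were higher and 5 lower, with a median log2 fold change of −0.07. Over all genes tested, 30.5% were higher, 29.2% lower and the median was 0.0028. The sialyltransferase gene St6gal1, the fourth neighbour on the side of Kng1 and named after its value was seen, fell by 1.95 ± 0.072 on the log2 scale (adjusted p = 1.29e-07, edgeR). Without knockout replicate 2, 6 were higher and 7 lower among 15 tested. Whether the shifts of these neighbours bear on the kininogen values was not tested.

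The receptor genes also lie side by side, on chromosome 12. The nearest listed neighbours were D430019H16Rik (8 counts in wild type, 1 in knockout, not tested) and Glrx5 on the side of Bdkrb2, and Atg2b and Gskip on the side of Bdkrb1. Glrx5, Atg2b and Gskip had log2 fold changes of −0.22 ± 0.13, −0.22 ± 0.12 and −0.15 ± 0.088 (SE) and did not pass the test (adjusted p from 0.15 to 0.178, edgeR), though Glrx5 and Gskip passed without knockout replicate 2, with Gskip at adjusted p = 0.0274. Of 14 tested neighbours in this window 1 was higher and 6 lower, with a median of −0.22, and without knockout replicate 2 it was 1 higher and 10 lower of 15. Over all genes tested 29.2% were lower, and leaving out that library raised the genes called from 7136 to 8586. Those called lower include Serpina3n, described with the acute phase genes below. They also include Serpina3g and Serpina3i, named after their values were seen, at −3.57 ± 0.12 and −0.82 ± 0.093 (SE) on the log2 scale. These Serpina3 genes stand 6 to 10 listed genes away from the pair, on the side of Bdkrb2. Whether these shifts bear on the receptor values was not tested.

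**Figure D3:**
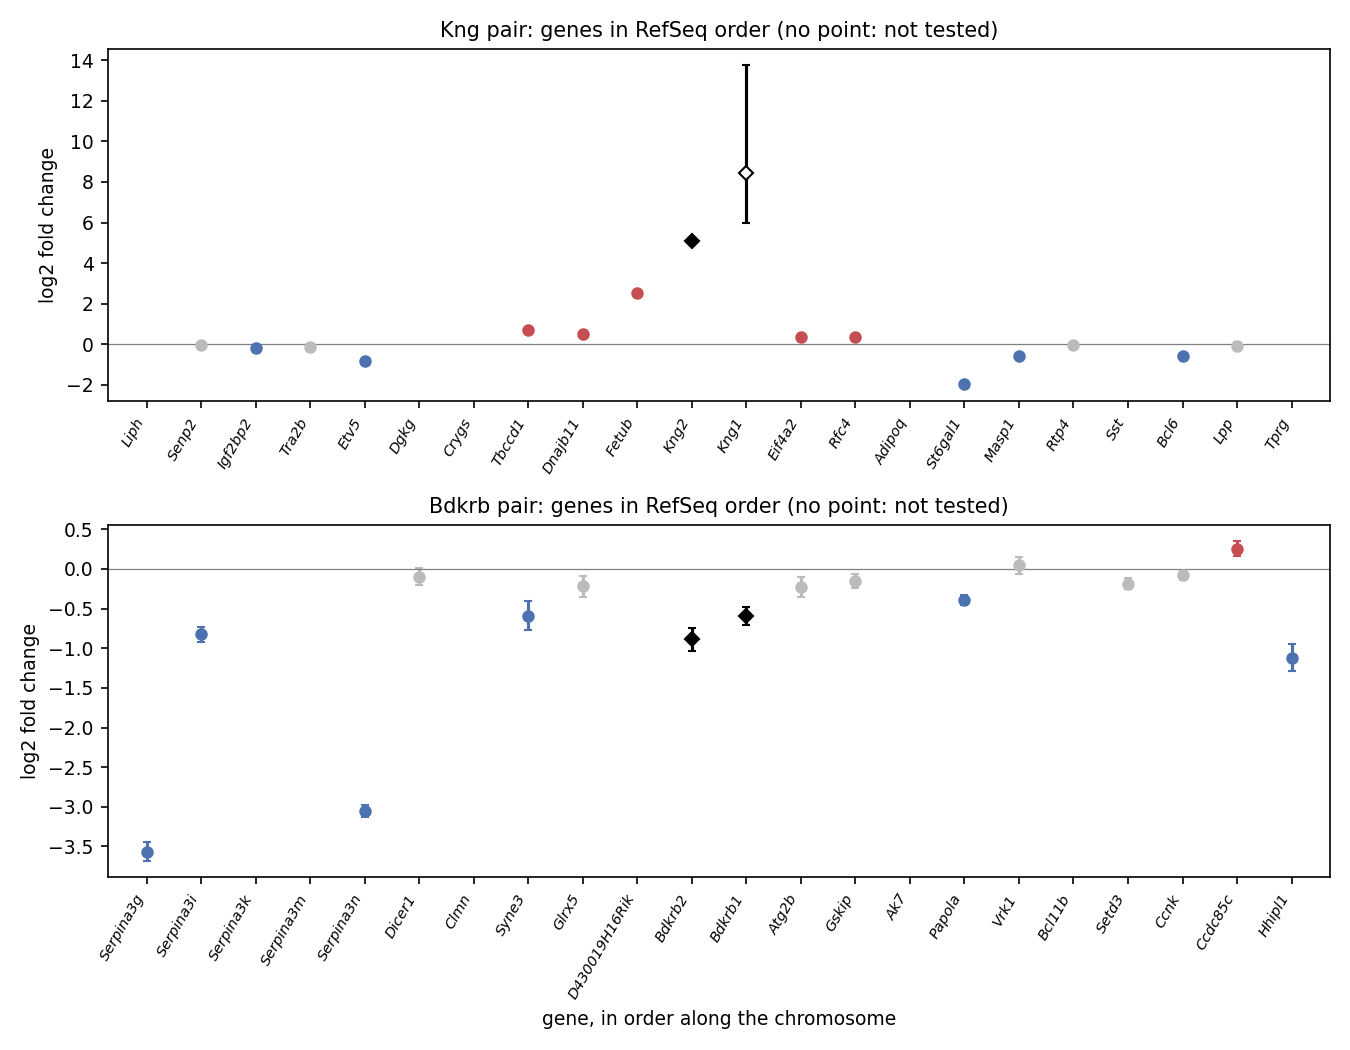
Log2 fold change of knockout over wild type (y axis, ± SE) for the 10 listed genes on each side of the kininogen pair (top) and the receptor pair (bottom), in chromosome order. Red and blue points were higher or lower at an adjusted p under 0.05, grey points were not called, genes with no point were not tested, and diamonds are members with no test, with Kng1 as an open diamond at the ratio of summed counts and its counting interval. Fetub, at 2.51, is the nearest listed gene on the side of Kng2, at 5.10. Genes absent from the deposited tables are not drawn.

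The rest of the kinin pathway was described with 6 lists of 105 genes chosen from textbook knowledge. Among them 90 were listed and 70 tested, of which 23 were higher and 25 lower in knockout, 68.6% in all. Over all genes tested 59.6% were called, so the lists lie near the background. The median log2 fold change over the 70 genes was −0.04.

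Of the genes for kinin release and contact activation, Klkb1, F12 and Serping1 were near 0, while Hsp90aa1, Plaur and Prcp were well expressed. Klkb1, plasma prekallikrein, had 2, 3 and 0 counts in wild type and 6, 1 and 1 in knockout. F12, the contact factor that activates it, had 0, 0 and 2 counts in wild type and 0 in each knockout library. Klk1 (tissue kallikrein) was not analysed here. Serping1, the C1 inhibitor that blocks plasma kallikrein, had 10, 7 and 7 counts in wild type and 0, 6 and 1 in knockout. Of 12 genes in the list 4 were tested, with 2 higher, 1 lower and a median of 0.13. Hsp90aa1, a chaperone reported to activate prekallikrein on cells, rose by 0.51 ± 0.057 on the log2 scale, and Plaur, the urokinase receptor that takes part in kininogen binding, fell by 0.64 ± 0.075. Prcp, a carboxypeptidase that can activate prekallikrein, rose from 29.7 ± 1.48 to 34.5 ± 2.27 CPM (log2 fold change 0.21 ± 0.075 SE, adjusted p = 0.0344, edgeR). That call was lost with DESeq2 and without knockout replicate 1 or wild-type replicate 1 or 2, with adjusted p up to 0.118 over the settings tried.

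Other kinin-cleaving peptidases were expressed where Ace and Mme were not. Of 21 genes 11 were tested, with 4 higher, 5 lower and a median of −0.15. Anpep, the aminopeptidase N gene, had 237, 218 and 240 counts in wild type and 68, 57 and 49 in knockout. It fell from 13.5 ± 0.392 to 3.19 ± 0.471 CPM (mean ± SD of 3 libraries each; log2 fold change −2.08 ± 0.13 SE, adjusted p = 1.95e-06, edgeR). Ece1, an endothelin-converting enzyme that also cuts bradykinin, fell by 0.74 ± 0.057 on the log2 scale, to 43.4 ± 1.49 CPM. Thop1, a thimet oligopeptidase, rose by 0.56 ± 0.078 and Xpnpep1, an aminopeptidase that removes the first arginine, by 0.45 ± 0.055, both on the log2 scale. Cpm, a membrane carboxypeptidase that makes B1 receptor ligands, had 2 counts in all of wild type and 0 in knockout. Other carboxypeptidase genes of the list, named after their values were seen, were expressed. Cpd averaged 161 CPM in both groups, and Cpe went from 879 ± 18.3 to 763 ± 44.4 CPM. Cpe was called lower, a call lost without knockout replicate 1 or 3 or wild-type replicate 2 or 3. Cpz was near 0 in both groups. Cpn1 was not analysed here.

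Downstream of the receptors, genes moved in both directions. Of 28 genes 25 were tested, with 8 higher, 9 lower and a median of −0.06. Plcb1, a phospholipase C that Gq activates, fell from 29.1 ± 0.363 to 7.82 ± 2.03 CPM (mean ± SD of 3 libraries each; log2 fold change −1.90 ± 0.15 SE, adjusted p = 8.16e-06, edgeR). Rgs4, which speeds the shut-off of Gq, had 148 counts over the wild-type libraries and 11 over the knockout libraries. It fell by 3.79 ± 0.35 on the log2 scale (adjusted p = 2.44e-05, edgeR), with values from −4.06 to −2.67 under the alternatives tried. Nos2, the inducible nitric oxide synthase, fell from 45.8 ± 4.55 to 14.3 ± 0.163 CPM. The cyclooxygenase gene Ptgs1 rose from 197 ± 5.07 to 411 ± 5.26 CPM (log2 fold change 1.06 ± 0.053 SE, adjusted p = 6.58e-07, edgeR). The list's other prostaglandin genes, named after their values were seen, went both ways. On the log2 scale Ptgs2 fell by 0.44 ± 0.090 and Ptges by 0.46 ± 0.052, while Pla2g4a rose by 0.23 ± 0.058.

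The angiotensin system shares Ace with the kinins, and its list held genes near 0 as well as expressed ones. Agtr2 and Mas1 were near 0. Lnpep averaged 139 ± 12.1 CPM in wild type and 97.2 ± 47.9 in knockout, and Agtrap 24.2 ± 2.13 and 20.4 ± 2.27 CPM. Lnpep and Agtrap, named after their values were seen, were not called, but were without knockout replicate 2. Of 9 genes 4 were tested, with 0 higher, 2 lower and a median of −0.38. Agt, angiotensinogen, fell from 2.87 ± 0.645 to 1.56 ± 0.227 CPM (mean ± SD of 3 libraries each; log2 fold change −0.87 ± 0.24 SE, adjusted p = 0.0109, edgeR). Atp6ap2, the prorenin receptor, fell by 0.19 ± 0.065 on the log2 scale (adjusted p = 0.0315, edgeR), a call lost without knockout replicate 1 or 3 or wild-type replicate 1 or 3, with adjusted p up to 0.137.

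Among cystatins and the cysteine proteases they inhibit, 9 of 15 genes were tested, with 3 higher, 4 lower and a median of −0.21. Beside Fetub, the secreted inhibitor cystatin C (Cst3) rose from 256 ± 3.62 to 453 ± 61.7 CPM (mean ± SD of 3 libraries each; log2 fold change 0.82 ± 0.091 SE, adjusted p = 7.11e-05, edgeR). The lysosomal cathepsin genes Ctsk and Ctsl fell, from 38.5 ± 1.37 to 4.20 ± 0.315 CPM and from 3781 ± 82.7 to 2065 ± 208 CPM.

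Genes of the acute phase and inducers of the B1 receptor were split. Of 20 genes 17 were tested, with 6 higher, 4 lower and a median of 0.06. The acute phase genes Hp (haptoglobin) and Lcn2 (lipocalin 2) rose from 8.64 ± 0.274 to 47.0 ± 6.23 CPM and from 9.30 ± 0.183 to 48.7 ± 3.42 CPM (SD, n = 3 each), and the cytokine gene Il6 from 5.29 ± 0.449 to 14.8 ± 0.479 CPM. Serpina3n, an acute phase protease inhibitor in the receptors' window, fell from 275 ± 6.66 to 33.1 ± 2.51 CPM (log2 fold change −3.05 ± 0.071 SE, adjusted p = 8.87e-09, edgeR). Of the interleukin-1 genes, named after their values were seen, the receptor gene Il1r1 fell from 172 ± 1.91 to 75.4 ± 4.39 CPM. Il1a rose from 1.34 ± 0.286 to 2.31 ± 0.128 CPM, and Il1b was near 0 in both groups.

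**Figure D4:**
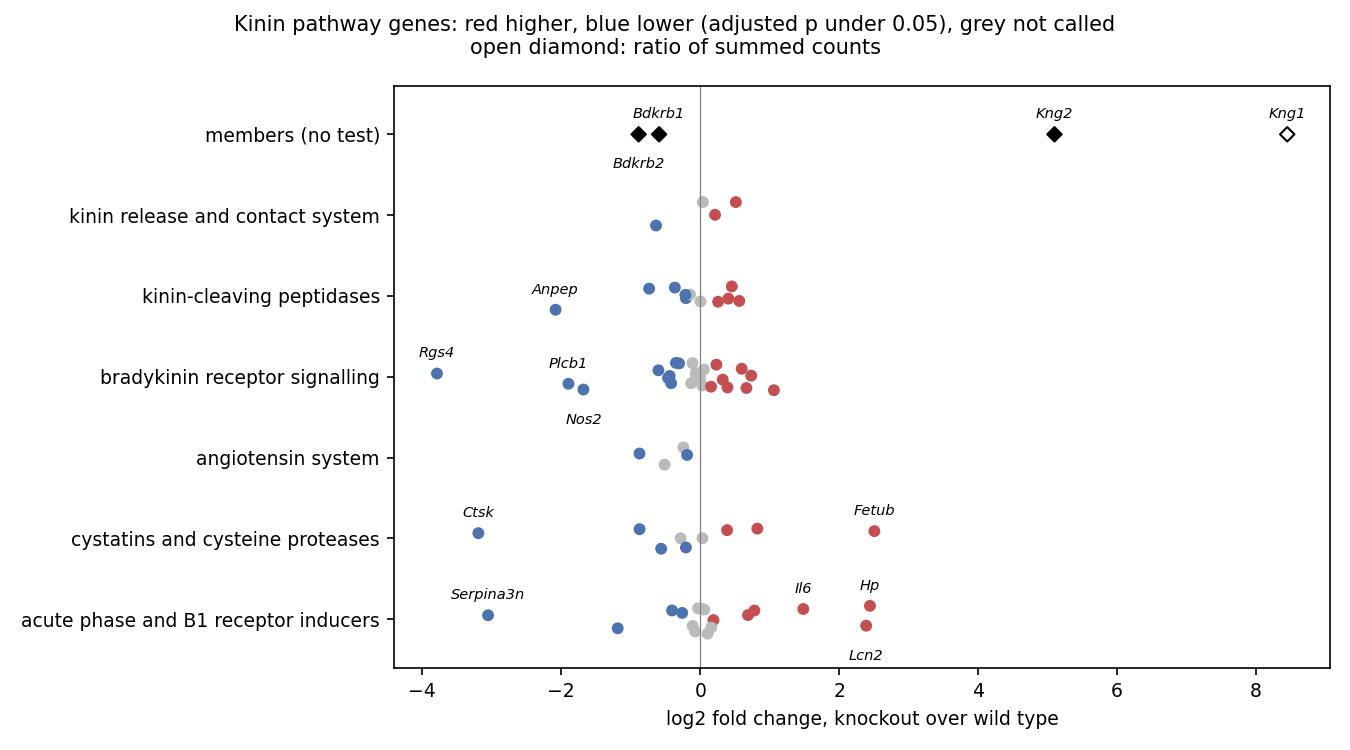
Log2 fold change of knockout over wild type (x axis) for the tested genes of the 6 kinin pathway lists (rows; points are spread vertically for visibility) and, in the top row, the 4 members in the fit as diamonds with no test. Red and blue mark genes higher or lower at an adjusted p under 0.05; Kng2 at 5.10 and Kng1, drawn open at the ratio of summed counts, lie to the right of all 70 list genes, and the receptors lie within their range.

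Markers of cells that make kininogen were looked at beside these values. Of 8 hepatocyte markers 4 were listed and none reached the fit, with summed levels of 0.0605 to 0.169 FPKM in the wild-type libraries and 0.0468 to 0.137 FPKM in the knockout libraries. Albumin (Alb) had 0, 0 and 4 counts in the wild-type libraries and 0, 0 and 1 in the knockout libraries. The summed ranges of this list overlapped between the groups. Apob alone of its listed genes was higher in every knockout library, at 12, 10 and 8 counts against 1, 0 and 0 in wild type, and was named after its values were seen. Kidney tubule markers, 2 of 5 listed, summed to 0.132 to 0.161 FPKM in wild type and 0.0437 to 0.125 FPKM in knockout. Slc12a1 was called lower, with 10, 10 and 11 counts in wild type against 4, 2 and 2. Lrp2, the other listed gene, was not tested and had 4, 5 and 9 counts in wild type against 14, 6 and 28 in knockout. Summed levels of 3 further lists were higher in knockout, the epithelial (0.61 to 0.883 against 2.18 to 2.79 FPKM), leukocyte (2.79 to 3.15 against 4.09 to 4.78 FPKM) and endothelial markers (0.317 to 0.408 against 0.68 to 1.29 FPKM). Of these, 3 of 5, 4 of 6 and 5 of 5 genes were listed, none of them at 0 in all libraries. Only 1, 1 and 2 of them reached the fit, and in each list 1 gene passed the test as higher. Over all genes tested, 30.5% passed as higher and 29.2% as lower. Neural markers, 3 of 4 listed, summed to 0.56 to 0.685 FPKM in wild type and 0.0885 to 0.117 FPKM in knockout, with 1 gene called lower. The part of such markers in the kininogen values was not tested.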

How the data were processed

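Poly(A) RNA of 6 libraries (3 wild type, 3 labelled RAI16 KO) was sequenced after TRIzol extraction, with 1 µg of RNA and a stranded kit, per the labels' protocols. The deposited tables hold raw read counts per gene and FPKM values from the authors for the same 16000 genes. The submitters' processing notes name GRCm39 and the tools HISAT2, HTSeq, Cufflinks, DESeq and Trimmomatic. Versions, settings, annotation and strand use: not given in the sources used here. Groups and replicate numbers come from the titles, and 0 columns belong to other samples.

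The members and lists were chosen with earlier results of these data known. Genes passing filterByExpr (11972) entered edgeR (4.0.16, under R 4.3.3) with TMM scaling. Its quasi-likelihood test compared knockout with wild type, with genotype as the sole term. Calls required an adjusted p below 0.05 (Benjamini-Hochberg, across the whole table). Standard errors were derived as |log2 fold change| over the square root of F. Counting intervals are exact binomial at 95%, and PCR copies are not independent molecules. The floor for 0 counts is 3 counts. Genes named were the 6 members, up to 4 called genes per list with the largest change and a mean of at least 1 CPM, direct kinin genes whatever their value (1 is not reported here), 2 neighbours on each side of each pair, and 3 genes per member for likeness. Of the listed genes, 15905 matched RefSeq by gene number. Alternatives were other scalings, DESeq2 (1.42.0), no filter, limma (3.58.1) on log2 of FPKM with a pseudocount of 0.1, the replicate number as a block, and each library left out.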

Additional observations from a re-analysis of the deposited data

How the results depend on the processing

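The 4 members in the fit kept their direction under every setting tried. The Kng1 log2 fold change was 8.0, 8.33 with DESeq2 and 4.73 with limma on log2(FPKM + 0.1), and leaving out 1 library gave 7.54 to 9.92, since 1 wild-type count lies under it. Kng2 was 5.10, 4.79 with limma on that scale, 5.34 with Kng1 added, and 5.01 to 5.26 without 1 library. On log2(FPKM + 1) the values were 1.90 for Kng1, 3.33 for Kng2 and −0.47 for Bdkrb2. Leaving out 1 library gave −0.72 to −0.51 for Bdkrb1, −0.99 to −0.76 for Bdkrb2 and 0.90 to 2.25 for Mme, which is a ratio of 15 to 5 counts. Ace, with 0 wild-type counts, had no fitted value to recompute, and 9 of its 10 counts lie in knockout replicate 2. The genes called (7136) ranged from 6048 to 8586 without 1 library, and list genes from 19 to 28 higher and 20 to 30 lower, the highest each time without knockout replicate 2. With the replicate block, 6692 genes were called, with 20 list genes higher and 24 lower. Deviations of same-numbered libraries correlated at −0.07, −0.09 and 0.02, so the numbers are not taken as pairs. The block also lost the calls of Prcp, Atp6ap2 and Rfc4. Recounted after seeing the data, neighbours of the receptors called higher went from 1 to 0 with DESeq2 and with the block, and ran from 0 to 1 without 1 library. Those called lower ran from 5 to 10 around 6, with 10 without knockout replicate 2. Depth limits Ace, Mme and wild-type Kng1.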
